A study of Mus musculus with 12 samples.

Results

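The 34 genes described here encode proteins of the junctions that hold epithelial cells together: 4 of adherens junctions, 11 of desmosomes, 13 of tight junctions and 6 of gap junctions. They were taken from a fixed list, matched by gene symbol to the 54232 Ensembl identifiers counted in each library, and kept if they had at least 15 counts over all libraries. All 34 met that minimum, with totals from 194 counts for Cldn7 to 348693 for Dsp, and all 34 passed the filter on low counts used for testing.

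The samples were dorsal skin wounds of male mice of strain C57BLKS/J with the genotype Lepr (db/db), which lack a working leptin receptor and become obese and diabetic. The labels give their age as 12.5 weeks. Every wound was a 6 mm punch through the whole skin, taken on day 10, and RNA was sequenced after enrichment with oligo(dT). In the TD group (5 libraries) a Tegaderm film alone covered the wound, in the strain group (4 libraries) a patch made to stretch it by about 30%, and in the no-strain group (3 libraries) a patch that did not. All 3 groups thus share the mutation, the wound and the day, and no unwounded skin was analysed here. Libraries are numbered within their group in accession order. The labels do not say which wounds came from separate mice, so p-values measure only the spread between these libraries, which may in part be technical.

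Adherens junctions join neighbouring cells through cadherins, which bind catenins and through them actin. Desmosomes use related cadherins, the desmogleins and desmocollins, and tie them through plakoglobin, plakophilins and desmoplakin to keratin filaments. Tight junctions seal the space between cells with claudins, occludin and tricellulin, anchored on scaffold proteins, and in mouse epidermis they lie in the granular layer. Gap junctions are channels built of connexins that pass small molecules between cells. During closure of a skin wound, keratinocytes at the edge loosen these contacts, migrate, and build them again behind the moving front.

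Libraries held 20354677 to 25059371 counts each, and 3 counts, the limit that a count of 0 allows, are at most 0.147 CPM (the standard unit of a count divided by its library’s scaled total). That floor covers counting error only. The 12 basal keratinocyte markers and the 10 fibroblast markers were all detected in every group. The summed level of 14 markers of differentiated epidermis ran from 7866 to 12098 CPM in TD, from 7625 to 11211 CPM under strain and from 2593 to 11674 CPM without strain. Sample titles carry the numbers 1 to 6 for TD wounds and 7 to 15 for wounds with a patch, so any effect of that order cannot be told apart from the patches.

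Most genes of the main adhesive scaffold were not past the threshold in any comparison, while a smaller set, mainly of tight junctions, fell without strain. Under strain 3 of that set fell. Without strain, 8 of 34 junction genes fell relative to TD and 0 rose (edgeR quasi-likelihood test, adjusted p under 0.05 over 18618 genes): Pkp2 and Dsg2 of desmosomes, Cldn1, Ocln, Cgn, Marveld2 and Pard3 of tight junctions, and Gjb5 of gap junctions. Of all genes, 17.8% were called in that comparison in either direction, and 8.4% of all genes were called lower than TD. Of the junction genes 23.5% were called, all of them lower. The 8 calls depend on the setting: 2 were kept with no filter on low counts and 2 with the letter of the sample titles (L or R) as a covariate, whose meaning the labels do not give. Leaving out 1 library left between 1 call, without no-strain library 1 or 3, and 8 calls, without strain library 3. Of these 8 calls, 7 were among the genes named above, and Pard3 was lost. The count was 2 without TD library 1 or 3, 4 without TD library 4 or 5 and 5 without TD library 2 or strain library 2. With libraries scaled by their totals alone the same 8 were called, while the calls over all genes moved from 1741 higher and 1564 lower to 1257 higher and 2046 lower. Under strain, 3 of 34 fell relative to TD and 0 rose: Pkp2, Cgn and Marveld2. Without strain library 3 that count was 6, with Cldn23, Ocln and Gjb5 added, and it was 1 without TD library 3 or 4 or strain library 1, 2 or 4. It was 2 without TD library 1 or 5 or no-strain library 1 or 2, and 1 with no filter on low counts or with the title letter. DESeq2 called 7. In the edgeR fit with 3 calls under strain, 12.6% of all genes were called in either direction and 6.41% were called lower. Of the junction genes 8.82% were called in that fit, all of them lower, so under strain the list did not stand out. The median log2 change of the 34 genes was -0.27 without strain and -0.08 under strain, where that of all genes was 0.00 and 0.02. Both comparisons use the same 5 TD libraries, and every change given below as under strain or without strain is relative to TD. Counting genes whose patch libraries all lay below all TD libraries gave 5 of 34 under strain, where 7.15% of all genes did so, and 10 of 34 without strain, where 12.5% did; the latter 10 are the 8 called genes with Cldn23 and Marveld3.

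**Figure D1:**
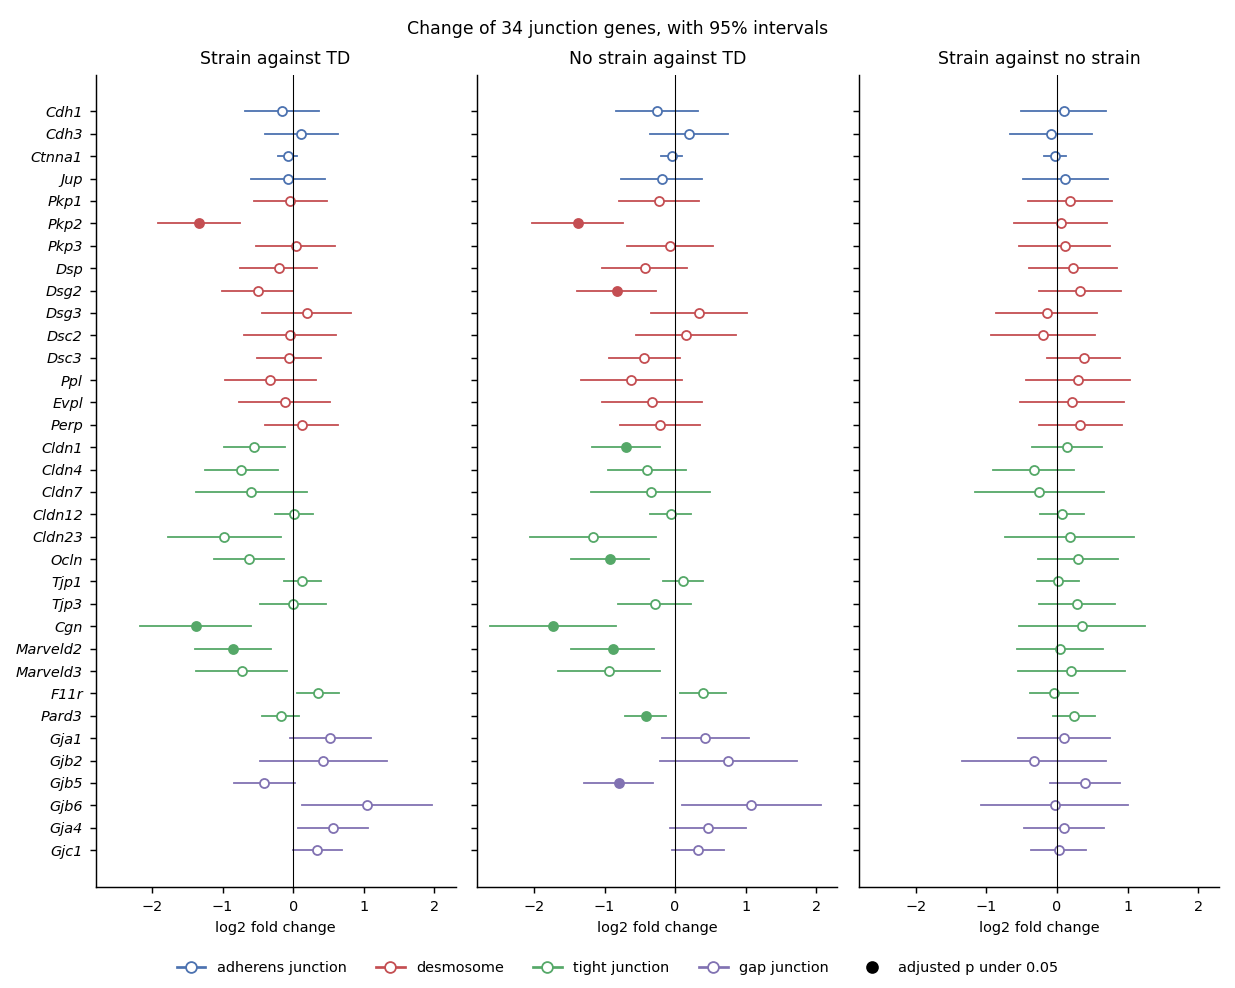
Log2 fold change (horizontal axis) of each junction gene in 3 comparisons, with 95% intervals; colours mark the junction class and filled points an adjusted p under 0.05. The 3 filled points under strain and the 8 without strain all lie below 0, and the panel of strain against no strain has none.

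In whole-tissue RNA, fewer cells of a type and less RNA per cell cannot be told apart, and this holds for every change below. The 8 genes that fell were mostly of low level. Per kilobase of exon (FPKM, CPM divided by the exon length in kilobases), the median of their mean levels was 2.96, against 22.1 for the other 26. Of the 11 junction genes with a mean level under 5 FPKM, 6 fell in at least 1 comparison. Perp, a tetraspan protein that desmosomes need for stable adhesion, had the highest level at 470 FPKM, followed by Dsp at 129 FPKM and Gjb2 at 102 FPKM, and none of these 3 was called. Cldn7 had the lowest at 0.354 FPKM.

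**Figure D2:**
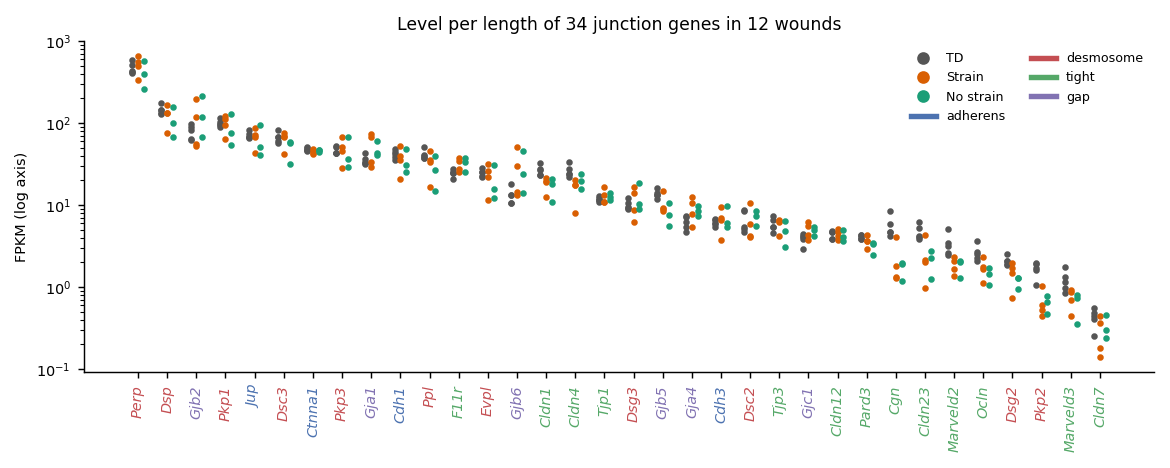
Level per exon length (FPKM, log axis) of the 34 junction genes in each of 12 wounds, ordered by mean level; points are libraries, coloured by group, and gene names are coloured by junction class. Of the 8 genes that fell, 6 lie among the 11 with a mean under 5 FPKM at the right.

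Because 8 genes fell in the same comparison, the sequence before their start sites was searched for letters bound by factors known to act on epithelial junction genes. The windows were the 250 bases before each start in RefSeq's table for GRCm38.p6, and both strands were read. The table held 25 windows for 18 of the 34 genes, among them Cldn1, Ocln, Cgn, Marveld2, Pard3 and Gjb5. CACCTG, the E-box bound by SNAI and ZEB repressors, was found before 2 of those 6 genes (Ocln and Pard3) and before 5 of the 12 others with a window, and 17.2% of all 32851 windows hold it. AACCGGTT, bound by grainyhead-like factors, was found in 0 of the 25 windows and in 0.116% of all. TGANTCA, bound by AP-1, was found before 0 of the 6 and 3 of the 12 (6.75% of all windows), and CATTCC, bound by TEAD, before 0 of the 6 and 1 of the 12 (12.6%). Counts before genes take any window of a gene, with 9 windows for the 6 genes and 16 for the 12. They are therefore not on the scale of the shares of single windows. A match is a run of letters and not a bound site.

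Shown are the stretch before Cgn, which had the largest change, that of its junction partner Ocln, that of Gjb5, and the internal start of Pard3, where the E-box (in capitals) occurs 3 times; bases that any annotated exon covers are left out. Their positions in GRCm38.p6, all on the strand of the gene, are chr3:94786493-94786732 (minus) for Cgn, chr13:100552719-100552968 (minus) for Ocln, chr4:127358182-127358414 (minus) for Gjb5 and chr8:127299362-127299584 (plus) for Pard3.
Cgn: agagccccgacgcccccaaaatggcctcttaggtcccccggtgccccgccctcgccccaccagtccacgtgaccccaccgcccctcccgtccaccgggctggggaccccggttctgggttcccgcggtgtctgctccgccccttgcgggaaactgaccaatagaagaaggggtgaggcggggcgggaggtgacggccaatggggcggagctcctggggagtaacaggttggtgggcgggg
Ocln: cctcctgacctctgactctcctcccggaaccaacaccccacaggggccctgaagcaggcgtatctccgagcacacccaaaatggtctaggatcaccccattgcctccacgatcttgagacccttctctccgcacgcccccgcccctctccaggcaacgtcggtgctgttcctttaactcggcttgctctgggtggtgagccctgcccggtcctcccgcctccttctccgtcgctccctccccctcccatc
Gjb5: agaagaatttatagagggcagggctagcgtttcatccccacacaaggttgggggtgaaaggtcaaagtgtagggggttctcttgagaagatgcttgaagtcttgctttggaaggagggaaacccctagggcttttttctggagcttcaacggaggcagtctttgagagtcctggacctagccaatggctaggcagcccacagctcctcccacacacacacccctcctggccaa
Pard3: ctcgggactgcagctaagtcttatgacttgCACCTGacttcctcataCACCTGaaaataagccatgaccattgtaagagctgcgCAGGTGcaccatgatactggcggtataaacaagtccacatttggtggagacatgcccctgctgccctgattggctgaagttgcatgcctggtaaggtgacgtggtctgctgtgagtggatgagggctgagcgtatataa
The 3 E-boxes of Pard3 begin 220, 203 and 166 bases before that start, and the last of them reads CACCTG on the opposite strand. The Cgn, Ocln and Gjb5 stretches hold none of the 4 motifs. The 2 E-boxes counted for Ocln lie in the window of its other start, in bases that an exon covers.

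None of the 4 adherens junction genes was called in any comparison. Cdh1 encodes E-cadherin, the main cadherin of keratinocytes. It had 202, 161, 222, 189 and 174 CPM in TD, 238, 181, 163 and 96.3 CPM under strain, and 219, 142 and 115 CPM without strain. The groups overlap, and the lowest value is that of strain library 4. Its log2 change was -0.16 with a standard error (SE) of 0.241 under strain (edgeR adjusted p = 0.699) and -0.25 with an SE of 0.263 without strain (edgeR adjusted p = 0.539). Cdh3 (P-cadherin, of basal cells), Jup (plakoglobin, shared with desmosomes) and Ctnna1 (alpha-catenin, the link to actin) were not called either, with adjusted p from 0.424 to 0.872 in the 2 comparisons with TD (edgeR). Ctnna1 had 306 ± 12.5 CPM in TD (± SD, n = 5), 290 ± 19.7 CPM under strain (± SD, n = 4) and 295 ± 9.06 CPM without strain (± SD, n = 3), and the 95% interval of its change under strain was -0.21 to 0.06 on the log2 scale.

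Of the 11 desmosome genes, Pkp2 fell under both patches, Dsg2 fell without strain, and the other 9 were not called. Dsp encodes desmoplakin, which anchors keratin filaments. It had 1383, 1257, 1711, 1378 and 1280 CPM in TD, 1584, 1263, 1282 and 736 CPM under strain, and 1516, 960 and 648 CPM without strain. The patch libraries lay within the TD range or below it, and the log2 change without strain was -0.43 with an SE of 0.275 (edgeR adjusted p = 0.305). Pkp1 and Pkp3 (plakophilins of the epidermal plaque), Dsg3, Dsc2 and Dsc3 (desmosomal cadherins), Ppl and Evpl (periplakin and envoplakin, which also enter the cornified envelope) and Perp likewise had adjusted p of at least 0.206 in both comparisons with TD. Ppl, at 284 ± 38.0 CPM in TD (± SD, n = 5) and 185 ± 84.3 CPM without strain (± SD, n = 3), had the most negative log2 change of this uncalled group, -0.62 with an SE of 0.327 (edgeR adjusted p = 0.208).

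Pkp2 (ENSMUSG00000041957, chr16:16213318-16272712 in GRCm38) encodes plakophilin 2, the plakophilin of heart and simple epithelia. It had 9.26, 8.59, 10.2, 10.5 and 5.70 CPM in TD, 3.23, 2.79, 5.57 and 2.40 CPM under strain, and 2.52, 3.48 and 4.18 CPM without strain. Every patch library lay below every TD library, although strain library 3 came close to TD library 5. Its log2 change was -1.33 with an SE of 0.266 under strain (edgeR adjusted p = 0.0124) and -1.38 with an SE of 0.296 without strain (edgeR adjusted p = 0.0110). Of the 8 genes, Pkp2 kept its call most often when single libraries were left out: in 12 of 12 fits for strain, and in 11 of 12 for no strain, the exception being without no-strain library 1 (edgeR adjusted p = 0.0508).

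Dsg2, the desmoglein found in all tissues with desmosomes, fell without strain and missed the threshold under strain. It had 17.4, 15.3, 21.1, 17.0 and 15.8 CPM in TD, 14.1, 12.3, 16.2 and 6.13 CPM under strain, and 10.8, 10.7 and 7.76 CPM without strain. The no-strain libraries all lay below TD, and strain library 3 lay within it. The fitted log2 change was -0.83 with an SE of 0.258 without strain (edgeR adjusted p = 0.0464) and -0.50 with an SE of 0.231 under strain (edgeR adjusted p = 0.171). Its call held in 2 of 12 fits that left out a library, those without strain library 3 or 4, and adjusted p rose to at most 0.165.

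Levels per length show how small a share these isoforms have. Pkp2 made up 1.04% ± 0.208 (SD, n = 5) of the summed FPKM of the 4 plakophilins in TD, 0.430% ± 0.145 (SD, n = 4) under strain and 0.545% ± 0.318 (SD, n = 3) without strain. Pkp1 held 63.9% ± 0.762 (SD, n = 5) in TD and 61.7% ± 1.80 (SD, n = 3) without strain. Among 5 desmogleins, Dsg2 held 2.63% ± 0.0527 (SD, n = 5) in TD and 2.06% ± 0.541 (SD, n = 3) without strain. The share of Dsg3, which is made mainly by basal and lower spinous cells, was 12.8% ± 2.51 (SD, n = 5) in TD and 21.5% ± 7.14 (SD, n = 3) without strain. These shares overlap, with 8.94% to 15.0% in TD and 14.3% to 28.6% without strain. They depend on the other desmogleins too, and Dsg3 itself was not called, with a log2 change of 0.34 without strain (edgeR adjusted p = 0.482). Dsg1a, Dsg1b and Dsg1c are close copies whose reads may be split between them, so their own shares are not given.

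The tight junction class had most of the calls: 5 of 13 genes fell without strain (38.5%) and 2 of 13 under strain (15.4%). Of all genes, 8.4% and 6.41% were called lower in these comparisons. Claudins form the seal, occludin and tricellulin belong to the related MARVEL proteins, and cingulin and the ZO proteins lie under the membrane.

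**Figure D3:**
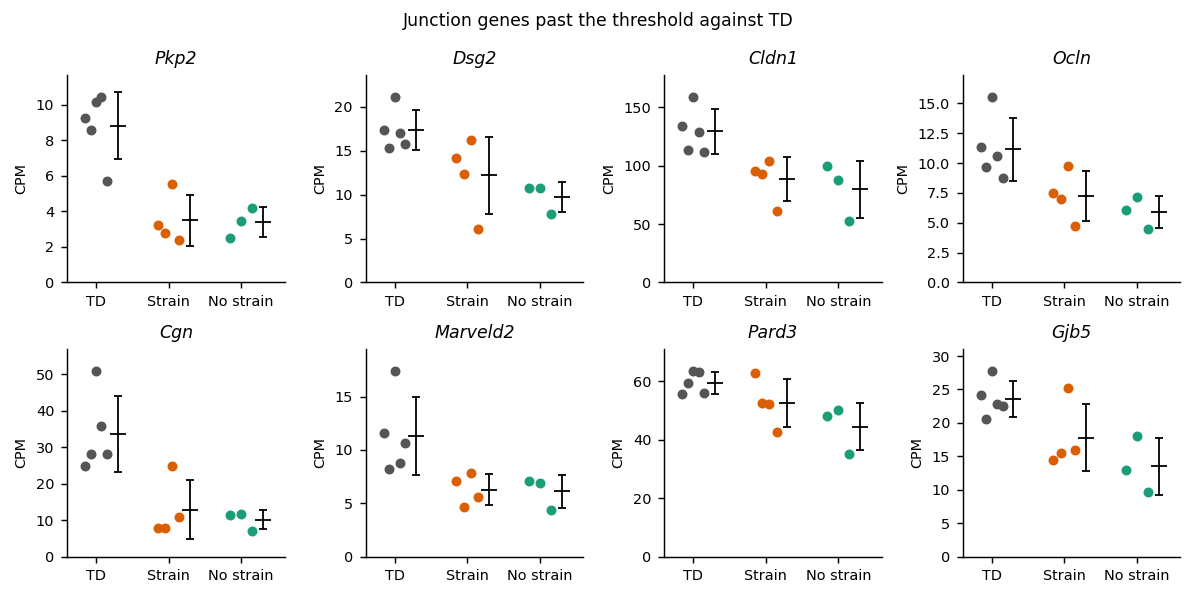
CPM (vertical axis, from 0) of the 8 junction genes called in at least 1 comparison with TD; points are libraries in replicate order from left to right, and bars give the mean and SD of the group. The no-strain libraries lie below all TD libraries in each panel, while strain library 3 reaches the TD range for Dsg2, Ocln and Gjb5 and strain library 1 for Pard3.

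Cgn (ENSMUSG00000068876, chr3:94760069-94786492) encodes cingulin, which links ZO proteins to actin and myosin. It had 24.97, 28.1, 50.9, 35.7 and 28.3 CPM in TD, 7.80, 7.97, 24.8 and 10.9 CPM under strain, and 11.4, 11.8 and 7.11 CPM without strain. No patch library reached the TD range, and strain library 3 lay just under its lowest value. The log2 change was the largest of the 34 genes in both comparisons: -1.38 with an SE of 0.359 under strain (edgeR adjusted p = 0.0313) and -1.73 with an SE of 0.407 without strain (edgeR adjusted p = 0.0167). The strain call was lost without TD library 3 or 4, or without strain library 1, 2 or 4, and the no-strain call without no-strain library 1 or 3. Adjusted p then reached at most 0.0955 and 0.0700, and the log2 change stayed between -1.93 and -1.18 and between -1.86 and -1.53 in the 12 fits of each comparison.

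Ocln and Marveld2 are neighbours on chromosome 13, separated by 43.2 kb (chr13:100496507-100552718 and chr13:100595957-100616971). Ocln encodes occludin. It had 11.3, 9.65, 15.5, 10.6 and 8.72 CPM in TD, 7.50, 6.98, 9.77 and 4.70 CPM under strain, and 6.08, 7.16 and 4.46 CPM without strain. The no-strain libraries lay below TD, and strain library 3 lay within it. Its log2 change was -0.92 with an SE of 0.253 without strain (edgeR adjusted p = 0.0293) and -0.62 with an SE of 0.227 under strain (edgeR adjusted p = 0.0916). Without TD library 1 or 3, or no-strain library 1 or 3, the no-strain call was lost, with adjusted p up to 0.117.

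Marveld2 encodes tricellulin, which closes the corners where 3 cells meet. It had 11.6, 8.22, 17.4, 8.76 and 10.7 CPM in TD, 7.06, 4.64, 7.83 and 5.61 CPM under strain, and 7.11, 6.86 and 4.37 CPM without strain. All patch libraries lay below TD, with a gap of less than 1 CPM between the nearest. The fitted log2 change was -0.85 with an SE of 0.246 under strain (edgeR adjusted p = 0.0443) and -0.89 with an SE of 0.272 without strain (edgeR adjusted p = 0.0437). Both calls were close to the threshold: they held in 3 and 4 of the 12 fits that left out a library, with adjusted p of up to 0.125 and 0.160, and were lost without TD library 1, 3 or 5, strain library 1 or 4, or no-strain library 1 or 2 in both comparisons. The strain call was also lost without TD library 4 or strain library 2, and the no-strain call without no-strain library 3.

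Pard3 encodes PAR3, which places tight junctions as part of the polarity complex. It had 55.5, 59.2, 63.4, 63.0 and 55.9 CPM in TD, 62.9, 52.5, 52.3 and 42.6 CPM under strain, and 48.0, 50.1 and 35.2 CPM without strain. Without strain all values were under those of TD, and under strain they overlapped. The log2 change without strain was -0.42 with an SE of 0.132 (edgeR adjusted p = 0.0481), and under strain -0.18 with an SE of 0.120 (edgeR adjusted p = 0.356). The call held in 3 of 12 fits that left out a library, those without strain library 1 or 4 or no-strain library 2, and adjusted p reached at most 0.183.

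Cldn1 encodes claudin 1, without which mouse epidermis loses its water barrier. It had 134, 114, 159, 129 and 111 CPM in TD, 94.9, 92.7, 104 and 61.0 CPM under strain, and 99.6, 87.3 and 52.5 CPM without strain. No patch library reached the TD range. The log2 change was -0.69 with an SE of 0.219 without strain (edgeR adjusted p = 0.0490) and -0.55 with an SE of 0.199 under strain (edgeR adjusted p = 0.0906). The call held in 3 of 12 fits that left out a library, those without strain library 3 or 4 or no-strain library 1, and adjusted p reached at most 0.161.

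The other claudins and MARVEL proteins among the 34 were not called by edgeR. Cldn4 had 47.5 ± 8.04 CPM in TD (± SD, n = 5), 28.6 ± 9.57 CPM under strain (± SD, n = 4) and 36.0 ± 7.37 CPM without strain (± SD, n = 3) (edgeR adjusted p = 0.0610 and 0.300). Cldn23 had 8.66 ± 1.87 CPM in TD (± SD, n = 5), 4.37 ± 2.62 CPM (± SD, n = 4) and 3.87 ± 1.40 CPM (± SD, n = 3) in the same order (edgeR adjusted p = 0.0995 and 0.0702). Marveld3, a further MARVEL protein, had log2 changes of -0.73 with an SE of 0.297 and -0.93 with an SE of 0.331 (edgeR adjusted p = 0.125 and 0.0719). Cldn7 had 0.830 CPM or less on average in each group, and Cldn12, a claudin of many tissues, had 18.6 ± 2.12 CPM in TD (± SD, n = 5) and 17.8 ± 2.77 CPM without strain (± SD, n = 3).

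The genes for the scaffolds ZO-1 and ZO-3 and for the adhesion receptor JAM-A were not called. Tjp1, encoding ZO-1, had 101, 90.8, 85.3, 90.4 and 94.6 CPM in TD, 131, 104, 84.0 and 86.1 CPM under strain, and 111, 90.7 and 99.2 CPM without strain. The groups overlap, and the log2 changes were 0.13 with an SE of 0.121 under strain (edgeR adjusted p = 0.512) and 0.11 with an SE of 0.132 without strain (edgeR adjusted p = 0.583). Tjp3 (ZO-3) was not called either; it shares 1.08% of its exon bases with Apba3 on the other strand. F11r, encoding JAM-A, had 65.1 ± 6.41 CPM in TD (± SD, n = 5), 83.1 ± 14.9 CPM under strain (± SD, n = 4) and 85.6 ± 16.6 CPM without strain (± SD, n = 3). Its log2 changes were 0.35 with an SE of 0.137 and 0.39 with an SE of 0.148 (edgeR adjusted p = 0.113 and 0.0875), and without no-strain library 2 the second became 0.54 and was called (edgeR adjusted p = 0.0342).

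Of the connexins, Gjb5 fell without strain, while the connexins of activated keratinocytes had higher means under both patches but were not called. Gjb5 encodes connexin 31.1 of the epidermis. It had 24.2, 20.6, 27.7, 22.9 and 22.6 CPM in TD, 14.4, 15.6, 25.2 and 15.9 CPM under strain, and 13.0, 18.0 and 9.62 CPM without strain. The no-strain libraries lay below TD, and strain library 3 lay inside it. Its log2 change was -0.80 with an SE of 0.221 without strain (edgeR adjusted p = 0.0297) and -0.41 with an SE of 0.198 under strain (edgeR adjusted p = 0.195). The no-strain call was lost without TD library 1, 3 or 4 or no-strain library 1 or 3, with adjusted p up to 0.113. Without strain library 3, Gjb5 was called under strain too, with a log2 change of -0.64 (edgeR adjusted p = 0.0363).

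Gja1 encodes connexin 43, the most widespread connexin, also made by fibroblasts and vessel cells. It had 439, 338, 326, 345 and 373 CPM in TD, 764, 690, 302 and 343 CPM under strain, and 614, 419 and 437 CPM without strain. The log2 changes were 0.53 with an SE of 0.260 under strain (edgeR adjusted p = 0.203) and 0.43 with an SE of 0.282 without strain (edgeR adjusted p = 0.317). Strain libraries 1 and 2 lay well above TD and strain libraries 3 and 4 did not.

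Gjb2 and Gjb6 encode connexins 26 and 30, which keratinocytes make more of in wounds and in hyperproliferative skin. The genes are neighbours on chromosome 14, 18.6 kb apart. Gjb2 had 235, 153, 149, 217 and 198 CPM in TD, 479, 285, 135 and 125 CPM under strain, and 511, 162 and 289 CPM without strain. Gjb6 had 47.6, 27.9, 28.2, 35.9 and 35.9 CPM in TD, 135, 79.6, 38.9 and 35.5 CPM under strain, and 122, 37.0 and 63.9 CPM without strain. Both were highest in strain libraries 1 and 2 and no-strain libraries 1 and 3. The log2 changes of Gjb6 were 1.04 with an SE of 0.419 under strain and 1.08 with an SE of 0.448 without strain (edgeR adjusted p = 0.122 and 0.118), and those of Gjb2 were 0.43 with an SE of 0.411 and 0.75 with an SE of 0.442 (edgeR adjusted p = 0.525 and 0.262). The summed level of 12 markers of wound-activated keratinocytes, such as Krt6a and Krt16, was also highest in these 4 libraries: 12726 and 8037 CPM in strain libraries 1 and 2, 12482 and 6180 CPM in no-strain libraries 1 and 3, and 2977 to 4550 CPM in TD. The summed level of the neutrophil markers was highest in the same 4 libraries. It was 8752 and 5831 CPM in strain libraries 1 and 2, and 5222 and 4360 CPM in no-strain libraries 1 and 3. The part of either list in these values was not tested.

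**Figure D4:**
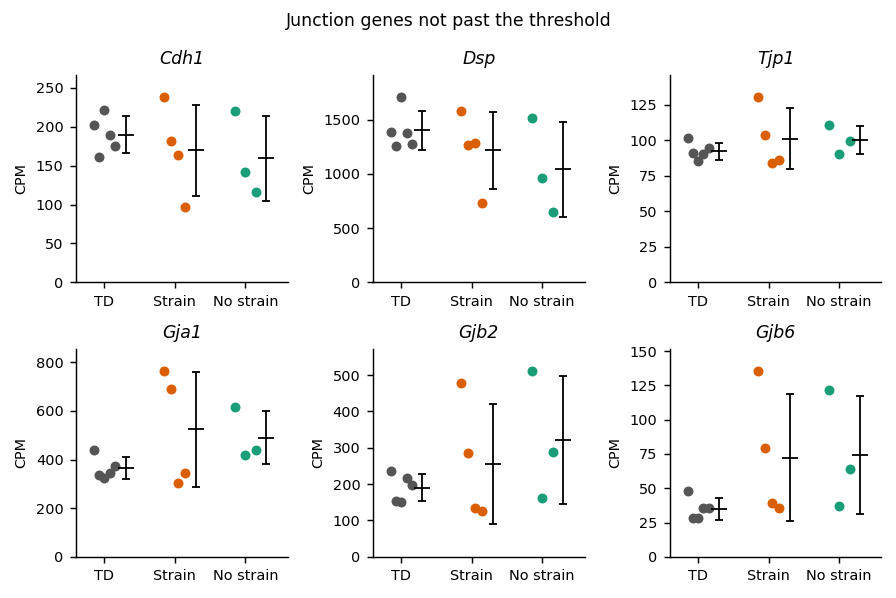
CPM (vertical axis, from 0) of 6 junction genes not called in any comparison; points are libraries in replicate order, and bars give the mean and SD of the group. For Gja1, Gjb2 and Gjb6, strain libraries 1 and 2 lie above strain libraries 3 and 4, and the patch groups overlap TD in every panel.

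The remaining connexins belong mainly to vessels. Gja4, encoding connexin 37 of endothelium, had 10.4 ± 1.99 CPM in TD (± SD, n = 5), 15.3 ± 5.36 CPM under strain (± SD, n = 4) and 14.3 ± 2.04 CPM without strain (± SD, n = 3) (edgeR adjusted p = 0.124 and 0.217). Gjc1, encoding connexin 45 of vascular muscle, had 19.6 ± 2.89 CPM (± SD, n = 5), 24.8 ± 5.55 CPM (± SD, n = 4) and 24.4 ± 3.01 CPM (± SD, n = 3) (edgeR adjusted p = 0.167 and 0.212). The 12 endothelial markers summed to 594 to 715 CPM in TD, 777 to 1018 CPM under strain and 781 to 935 CPM without strain, and 8 and 9 of them rose. Those are 66.7% and 75% of the list, where 12.6% and 17.8% of all genes were called in either direction. Of 8 markers of mural cells, which include vascular muscle, 1 rose and 1 fell in each comparison (25% called). Their median log2 change was -0.03 under strain and 0.11 without strain. Gja4 and Gjb5 lie 40.8 kb apart on chromosome 4, and their fold changes had opposite signs in both comparisons with TD.

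Strain against no strain asks what stretching itself adds, since both groups wore a patch. Of the 34 junction genes 0 were called (edgeR), 0 had an unadjusted p under 0.05, and DESeq2 and limma-voom called 0. Over all genes the count was 0 of 18618 (0% called), with 1045 at an unadjusted p under 0.05 (5.61%). The log2 differences ran from -0.33 for Cldn4 to 0.39 for Gjb5, with a median of 0.10 and SEs from 0.0700 to 0.475. The difference was above 0 for 25 of the 34 genes and below 0 for 9, and the median over all genes was 0.01. This lean depends on single libraries, which all 34 genes share. Leaving out 1 library moved their median to between -0.02, without no-strain library 3, and 0.30, without no-strain library 1. For 28 of 34 genes the 95% interval stayed within 1 log2 unit of 0. The narrowest was that of Ctnna1, -0.18 to 0.12, and the widest that of Gjb6, -1.08 to 1.01. For the 3 genes called under both patches, the difference was 0.05 for Pkp2 (95% interval -0.61 to 0.71), 0.35 for Cgn (-0.54 to 1.24) and 0.04 for Marveld2 (-0.57 to 0.65).

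Junction genes outside the 34 were tested in the same fit. Over all genes, 12.6% were called under strain and 17.8% without strain, with 6.41% and 8.4% called lower. Of 26 tight junction genes tested, 3 fell under strain (11.5%) and 6 without strain (23.1%), and 0 rose. Mpdz, encoding the scaffold MUPP1, had 54.0, 51.7, 51.1, 52.9 and 50.8 CPM in TD, 40.5, 35.5, 38.7 and 44.2 CPM under strain, and 32.7, 37.7 and 35.3 CPM without strain, with log2 changes of -0.39 and -0.56 (edgeR adjusted p = 0.00770 and 0.00220). Cldn3 went from 2.59 ± 0.707 CPM in TD (± SD, n = 5) to 0.750 ± 0.349 CPM (± SD, n = 4) and 0.664 ± 0.279 CPM (± SD, n = 3), with log2 changes of -1.77 and -1.95 (edgeR adjusted p = 0.0107 and 0.00765). Cldn8 and Ildr2, which encodes an angulin of tricellular contacts, fell without strain by 2.01 and by 1.64 on the log2 scale (edgeR adjusted p = 0.0281 and 0.0286). The level of Cldn8 was low, at 0.892 ± 0.379 FPKM in TD (± SD, n = 5) and 0.217 ± 0.161 FPKM without strain (± SD, n = 3), so its change rests on few counts.

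Of 15 further adherens junction genes tested, 1 rose and 2 fell under strain (20% called), and 2 rose and 4 fell without strain (40% called). Nectin3, an immunoglobulin-like adhesion receptor, went from 31.5 ± 1.18 CPM in TD (± SD, n = 5) to 19.1 ± 4.25 CPM (± SD, n = 4) and 18.4 ± 3.80 CPM (± SD, n = 3), with log2 changes of -0.72 and -0.78 (edgeR adjusted p = 0.0123 and 0.00931). Cdh5, the cadherin of endothelium, rose by 0.46 and 0.66 on the log2 scale (edgeR adjusted p = 0.0222 and 0.00517), beside the endothelial markers given above. Nectin2 rose without strain by 0.63 (edgeR adjusted p = 0.0157). Vcl, encoding vinculin, fell by 0.32 and 0.29 (edgeR adjusted p = 0.0198 and 0.0327); it shares 25.5% of its exon bases with Ap3m1 on the other strand, and whether counting used strand is not given in the sources used here. Of 6 further desmosome genes tested, 0 were called in either comparison (edgeR), with 1 at an unadjusted p under 0.05 under strain and 2 without.

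Of 9 further gap junction and pannexin genes tested, 1 rose under strain (11.1% called), and 2 rose and 2 fell without strain (44.4% called). Panx1, whose product forms ATP-releasing channels, had the smallest p of any junction gene. It had 33.4, 29.9, 32.2, 32.3 and 29.2 CPM in TD, 39.2, 42.3, 40.6 and 44.3 CPM under strain, and 47.9, 50.6 and 53.4 CPM without strain. The 3 groups do not overlap. The log2 changes were 0.41 with an SE of 0.0596 under strain (edgeR adjusted p = 0.00498) and 0.69 with an SE of 0.0640 without strain (edgeR adjusted p = 0.000382), and the difference between the patch groups, -0.28 with an SE of 0.0675, was not called (edgeR adjusted p = 0.872). Gjb1, encoding connexin 32, rose without strain by 1.68 (edgeR adjusted p = 0.0279), and had at most 2.33 CPM on average in any group.

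Of 20 regulators of epithelial state tested, among them the SNAI, ZEB, GRHL and OVOL factors, 0 were called under strain (edgeR), with 3 at an unadjusted p under 0.05, and 2 fell without strain. That is 10% without strain, where 17.8% of all genes were called and 8.4% were called lower, so the list did not stand out. Ovol2, which keeps cells epithelial, went from 1.01 ± 0.356 CPM in TD (± SD, n = 5) to 0.207 ± 0.0837 CPM without strain (± SD, n = 3), a log2 change of -2.25 (edgeR adjusted p = 0.0113). Twist1, a factor of mesenchymal cells, had 71.6 ± 5.43 CPM in TD (± SD, n = 5) and, without strain, 42.0 ± 12.3 CPM (± SD, n = 3), with a log2 change of -0.77 (edgeR adjusted p = 0.0334).

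Markers of several cell types differed between TD and the patches too, and their part in the changes above was not tested except as stated. Beside the counts that follow, 12.6% of all genes were called under strain and 17.8% without strain. Of 12 basal keratinocyte markers 2 fell under strain and 5 without strain, although their summed level overlapped: 6553 to 8407 CPM in TD, 5212 to 11860 CPM under strain and 5180 to 9142 CPM without strain. Their mean log2 CPM, the covariate used below, was 7.89 to 8.25 in TD and 7.41 to 8.04 under strain. Without strain it was 7.36 to 7.70, below every TD library. Hair follicle markers summed to 52.3 to 241 CPM in TD, 30.4 to 71.9 CPM under strain and 29.4 to 48.7 CPM without strain, and 3 of 10 tested fell in each comparison. Neutrophil markers summed to 492 to 1698 CPM in TD, 924 to 8752 CPM under strain and 2189 to 5222 CPM without strain, and 8 and 7 of 10 rose. Skeletal muscle markers summed to 6491 to 15882 CPM in TD, 2981 to 5743 CPM under strain and 4329 to 9460 CPM without strain, and 7 and 3 of 11 tested fell. The 10 adipocyte markers had 8 genes that fell in each comparison.

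**Figure D5:**
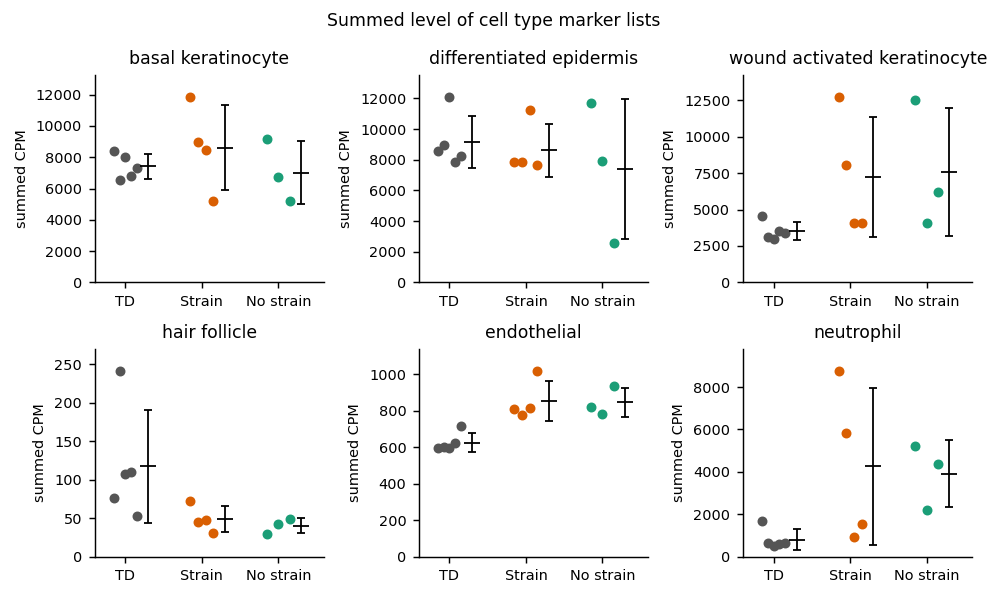
Summed CPM (vertical axis, from 0) of 6 marker lists in the 12 wounds; points are libraries in replicate order, and bars give the mean and SD of the group. Endothelial sums lie above TD in all 7 patch libraries, and differentiated epidermis is lowest, at 2593 CPM, in no-strain library 3.

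With the mean of the basal keratinocyte markers as a covariate, 0 of the 34 junction genes passed the threshold (edgeR), with 3 at an unadjusted p under 0.05 under strain and 1 without strain, and the log2 changes without strain shrank to between -0.84 for Cgn and -0.09 for Dsg2. Pkp2 then had -0.95 under strain and -0.77 without strain. With the skeletal muscle, neutrophil or hair follicle markers as the covariate, again 0 passed in either comparison (edgeR), with 0 to 8 at an unadjusted p under 0.05 under strain and 0 to 9 without strain. The log2 changes moved differently. With the hair follicle covariate those without strain were as large or larger for Cgn (-1.99), Marveld2 (-1.28), Ocln (-0.98), Gjb5 (-0.91), Dsg2 (-0.86) and Cldn1 (-0.75), and smaller for Pkp2 (-1.19) and Pard3 (-0.32). With the skeletal muscle covariate they ran from -1.23 for Cgn to -0.50 for Pard3, and Pkp2 had -0.45 under strain. With the neutrophil covariate Pkp2 kept -1.08 under strain and -0.95 without strain, and the other 7 were above 0 without strain. Over all genes the calls fell from 2349 to between 0 and 322 under strain and from 3305 to between 0 and 928 without strain with these 4 covariates. Each of the 4 had no overlap between TD and the patch libraries in at least 1 comparison, and there the fit cannot separate it from the patch.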

How the data were processed

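RNA from 12 wounds was sequenced, and the authors deposited 1 table of whole-number gene counts per library. Per the submitters' processing notes, bcl2fastq 2.17, FastQC, cutadapt, STAR, featureCounts and DESeq2 were used with GRCm38. The annotation release and the strand setting are not given in the sources used here. Total counts ranged from 20354677 to 25059371.

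From these counts, genes passing edgeR's filterByExpr (minimum count 10, minimum total 15) were kept, 18618 of 54232. They were scaled by TMM and tested in 1 fit of all 12 libraries with edgeR 4.0.16 (quasi-likelihood, robust) in R 4.3.3. Adjusted p-values are Benjamini-Hochberg values over all genes tested, with a threshold of 0.05. SEs are the absolute log2 fold change over the square root of F. CPM use TMM-scaled totals, and FPKM divide these by the exon length of the annotation supplied for this work. The test was tried on simulated counts with known changes. Pairs of libraries within a group differed by more than sampling noise, so none was counted as a repeat.

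Groups came from the sample labels. The alternatives were DESeq2 1.42.0, limma-voom (limma 3.58.1), other scalings and filters, covariates, and leaving out each library. A hair follicle covariate was added after seeing the data. Values in every library are given for called members (up to 4 per class, by smallest p) and for Cdh1, Dsp, Ocln, Tjp1 and Gja1, and further junction genes and regulators are named if called (up to 4 per list, by smallest p). Cldn1, Gjb2, Gjb6 and Cldn5 are given beyond that rule and were chosen after their values were seen. Some genes that the rule would name are not reported here. The members and lists were chosen with earlier results of these data known. Promoter windows came from RefSeq's table for GRCm38.p6, matched by symbol for 18 of 34 genes.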

Additional observations from a re-analysis of the deposited data

Results flagged for a closer look

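For each of the 34 junction genes, the TD and the strain group were searched for a library far from the rest on the log2 CPM scale. Of these 68 groups of values 2 had one, and chance gives about 1 in 20. Both concern strain library 4. Cldn4, a claudin of the upper epidermis, had 3.88 on the log2 CPM scale there, and the next lowest strain library had 4.98, or 14.6 against 31.5 CPM. Without this library its log2 change under strain was -0.52 (edgeR adjusted p = 0.0597). Tjp3, which encodes ZO-3, had 3.96 against 4.54 on the same scale, or 15.5 against 23.3 CPM. Its log2 change under strain without that library was 0.13 (edgeR adjusted p = 0.722).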

How the results depend on the processing

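The 3 junction genes called under strain became 7 with DESeq2, 1 with no filter on low counts, 1 with the title letter as a covariate (L or R, meaning not given; 1 L and 4 R in TD, 3 L and 1 R under strain, 2 L and 1 R without strain), and 0 with the basal keratinocyte, skeletal muscle, neutrophil or added hair follicle covariate (1 to 6 when 1 library was left out). The 8 called without strain became 2 with no filter, 2 with the title letter, and 0 with each of the 4 marker covariates (1 to 8 when 1 library was left out). Over all genes, the 2349 calls under strain became 1527 with no filter, 798 with the title letter, and 68, 1, 0 and 322 with the basal keratinocyte, muscle, neutrophil and hair follicle covariates (882 to 2458 with 1 library left out). The 3305 without strain became 2145 with the title letter and 115, 928, 0 and 297 with the same covariates (1505 to 3415). Counts over all genes with DESeq2 under strain and with no filter without strain are not reported here. The junction gene counts of those 2 settings therefore have no share of all genes beside them. The 0 between the patches became 29 with DESeq2. Under the neutrophil covariate the log2 change turned to 0.33 for Cgn under strain and, without strain, to 0.018 for Dsg2, 0.26 for Cldn1, 0.067 for Ocln, 1.10 for Cgn, 0.35 for Marveld2, 0.0079 for Pard3 and 0.48 for Gjb5. The neutrophil covariate had no overlap between TD and patch libraries in either comparison. The skeletal muscle covariate had none under strain, and the basal keratinocyte and hair follicle covariates had none without strain. In those comparisons the fit cannot separate the covariate from the patch. The cause was not tested. No paired analysis was possible because replicate numbers were given only in accession order and the title numbers of TD and the patches do not overlap. In counts simulated for strain against no strain over 18618 genes, 59% of changes of 1 log2 and 85% of changes of 2 log2 were recovered.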

Other observations

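Among 8 claudins, the share of Cldn5, the claudin of endothelium, was 26.7% ± 3.30 (SD, n = 5) in TD, 37.3% ± 7.57 (SD, n = 4) under strain and 36.4% ± 4.14 (SD, n = 3) without strain, while its own level was 23.7 ± 3.39, 24.5 ± 3.94 and 24.7 ± 1.95 FPKM (SD, same n). The share of Cldn1 was 30.0% ± 2.53 (SD, n = 5), 27.2% ± 2.81 (SD, n = 4) and 23.9% ± 5.61 (SD, n = 3).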
